A study of Mus musculus with 8 samples.

Results

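The genes described here build and serve the photoreceptor cilium: subunits of the BBSome, the intraflagellar transport (IFT) trains and their kinesin motors, the connecting cilium (the transition zone of this cell), and the carriers that bring lipid-anchored proteins through it. They were chosen by gene symbol, 38 of the 55213 symbols counted, and all 38 were found and passed the filter of at least 10 counts over the 8 libraries. Their levels were compared between 4 GF-HFD retinas (mice 13, 15, 16 and 19) and 4 GF-ND retinas (mice 9, 10, 11 and 12). All 8 mice were germ-free C57Bl/6 males. From 7 weeks of age the GF-HFD mice were fed food containing 23% saturated fat and the GF-ND mice a normal diet, and the retinas were taken 8 weeks later, at 15 weeks. Each library held RNA of a whole retina from 1 mouse, so a gene's level is summed over all retinal cell types, and a smaller number of photoreceptors cannot be told apart from less RNA per photoreceptor.

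The light-sensing outer segment of rods and cones is a modified cilium, joined to the cell body by the narrow connecting cilium. Proteins made in the cell body have to cross this bridge: IFT-B trains driven by kinesin-2 move outward, IFT-A is needed for the return, the BBSome is a coat that links membrane proteins to these trains, and the transition zone acts as a gate. Mutations in many of these genes cause retinal degeneration, alone or within syndromes such as Bardet-Biedl and Joubert syndrome.

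Ciliary genes are known targets of RFX factors, which bind the X-box, and photoreceptor genes are known targets of the homeobox factor CRX. The promoters of the genes were therefore searched for the X-box half-site GTTGCCA and for the CRX site TAATCC, both strands counted, in RefSeq windows (GRCm38.p6) of 250 bases before and 50 bases after each gene's start. A window was at hand for 35 of the 38 genes, and a gene with several starts was counted once if any of its windows held the motif. The half-site stood in a window of 4 of these 35 genes (11.4%), of 5.02% of all 27025 genes with a window and of 11 of 46 other cilium genes (23.9%). The 4 sites are shown because they are the complete half-sites found among the genes, with the motif in capitals.
Bbs1 (chr19:4906609-4906637, minus strand): tggctgagctgGTTGCCAaggcgacgcct
Ift27 (chr15:78174073-78174101, minus strand): ggttgatgatgGTTGCCAggagcctgttt
Ift88 (chr14:57424080-57424108, plus strand): ggagtcgcgccTGGCAACggctgggcgtc
Nphp4 (chr4:152478132-152478160, plus strand): ggtgcatcccgGTTGCCAgctgatgttgg

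The shorter core GTTGCC, added after the half-site had been counted, stood in a window of 13 of the 35 genes (37.1%), of 14.1% of all genes and of 18 of 46 other cilium genes (39.1%). Every half-site is also a core. Genes with a core but no complete half-site were Pde6d, Kif3a, Ift57, Ahi1, Bbs5, Bbs7, Ift140, Ift172 and Kif17. Only 3 of them are shown, as examples, with the core in capitals.
Pde6d (chr1:86582752-86582779, minus strand): ctagtgtgcccGGCAACaagagcaggca
Kif3a (chr11:53567260-53567287, plus strand): accccgcaggcGTTGCCccagtctagcg
Ift57 (chr16:49699196-49699223, plus strand): aggcgggtctgGTTGCCgtggtgaccgg
The CRX site stood in a window of 8.14% of all genes and of 2 of 46 other cilium genes (4.35%). Among the 35 genes, 3 (8.57%) held it, and Bbs1 was one of these. The sites of the others, Rpgrip1 and Unc119, are shown because these genes had the highest levels per length of all 38, with the site in capitals on the opposite strand.
Rpgrip1 (chr14:52110864-52110891, plus strand): ctaaaaggcctGGATTAgtgtctcctct
Unc119 (chr11:78345455-78345482, plus strand): ttgctgtttctGGATTAccaggccttga
The starts used for the printed Nphp4, Rpgrip1 and Unc119 sites lie 1436, 199 and 2102 bases inside the gene as GENCODE vM21 draws it, and that of Ift57 lies 61 bases inside. These matches are letters in a window, and binding was not measured.

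Totals ran from 41769598 to 44357518 counts per GF-HFD library and from 39258006 to 44025087 per GF-ND library, and single counts of the 38 genes lay between 195 and 64473. One library stood apart. A list of 14 lens transcripts made up 1.35% of the counts in GF-HFD mouse 19, 6.87% in GF-ND mouse 11 and 0.0211 to 0.193% in the other 6 retinas. The list of 7 pigment epithelium genes was also highest in GF-ND mouse 11, at 0.139%, against 0.00367 to 0.0518% in GF-HFD retinas and 0.00616 to 0.0111% in GF-ND mice 9, 10 and 12. The rod list, 14 genes that check the label of the tissue, took 6.82 to 8.40% of the counts in GF-HFD retinas, against 3.87% in GF-ND mouse 11 and 6.05 to 7.06% in mice 9, 10 and 12. Each comparison is therefore given with all 8 mice and again without GF-ND mouse 11. Whether lens tissue, the smaller rod share or another property of this library sets its cilium gene levels was not tested.

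With all 8 mice, 0 of the 38 cilium genes passed the adjusted test between diets, and the share at an unadjusted p under 0.05 was near that of all genes. GF-HFD retinas had the higher level in 21 of the 38 genes and the lower in 17, and the median log2 fold change was 0.03, beside −0.03 over all 26900 genes tested. In edgeR's quasi-likelihood test 3 genes had an unadjusted p under 0.05 (7.89%), beside 7.38% of all genes, and all 3 were higher in GF-HFD retinas (Pde6d, Ift22 and Unc119), beside 2.85% of all genes that were higher and 4.53% that were lower. After Benjamini-Hochberg adjustment over all genes 0 of the 38 passed, with a smallest adjusted p of 0.649. No gene of the whole table passed in this fit (0 of 26900) or in limma-voom, while DESeq2 called 46 genes (0.171%), 0 of them among the 38. At the paper's thresholds, a log2 fold change beyond 1 with an unadjusted p under 0.01, 0 of the 38 passed, beside 0.457% of all genes. Every GF-HFD retina lay above every GF-ND retina in 2 of the 38 genes (5.26%), Pde6d and Ift22, beside 2.29% of all genes, and 0 were separated in the other direction, beside 2.54%, with 4.83% of all genes separated in one direction or the other.

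The direction of many of these differences depended on the scale. When the libraries were scaled by the 14 rod genes in place of all genes, called the rod scale below, the median log2 fold change of all genes was −0.37, and at an unadjusted edgeR p under 0.05 GF-HFD retinas had the lower level in 12 of the 38 genes and the higher in 0, beside 16.3% and 0.29% of all genes. Relative to all genes the median of the 38 was then 0.08 higher.

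Without GF-ND mouse 11 the genes spread apart in both directions. An unadjusted edgeR p under 0.05 was reached by 14 of the 38 genes (36.8%), beside 23% of the 26338 genes then tested. Of these, 6 were higher in GF-HFD retinas (Pde6d, Ift57, Ift22, Unc119, Kif3a and Ift80), which is 15.8% of the 38 beside 12.1% of all genes, and 8 were lower (Rpgr, Rpgrip1, Bbs2, Ift88, Mkks, Nphp4, Ift172 and Ift140), which is 21.1% beside 11%. The median log2 fold change was −0.05, beside 0.01 over all genes. After adjustment 0 of the 38 passed, beside 1.6% of all genes, and the smallest adjusted p in edgeR were 0.0527 for Rpgr and 0.0575 for Rpgrip1. At the paper's thresholds 0 of the 38 passed here as well, beside 1.34% of all genes. The diets were separated in 7 of the 38 genes (18.4%), beside 20.2% of all genes, 3 of them higher and 4 lower in GF-HFD retinas, beside 9.67% and 10.5%. Leaving out GF-HFD mouse 19 as well gave 12 genes at an unadjusted p under 0.05, beside 19.3% of all genes, 6 of them higher and 6 lower in GF-HFD retinas, beside 9.51% and 9.75%. Most marker lists also lay above 0 in the fit without mouse 11, though few of their genes passed after adjustment (1 cone and 1 bipolar cell gene). The lens list was higher in GF-HFD retinas in 13 of the 13 genes tested (median log2 fold change 2.16, 0 at an unadjusted p under 0.05), the fibroblast list in 9 of 9 (2.20, 5 at an unadjusted p under 0.05), the pigment epithelium list in 7 of 7 (1.68, 6), the ciliary body and iris list in 6 of 6 (1.79, 4), the skeletal muscle list in 7 of 8 (1.07, 2), the ganglion cell list in 8 of 8 (0.32, 8), the Mueller glia list in 8 of 8 (0.28, 4) and the rod list in 13 of 14 (0.20, 1). The cone list was higher in 6 of 10 (0.03, 1 higher and 2 lower at an unadjusted p under 0.05) and the bipolar cell list in 5 of 8 (0.04, 2 higher and 1 lower). The lens and skeletal muscle lists were each far higher in a single GF-HFD retina. Lens transcripts took 1.35% of the counts in GF-HFD mouse 19 and 0.0261 to 0.0698% in the other GF-HFD retinas. GF-ND mice 9, 10 and 12 had 0.0211 to 0.193%. Skeletal muscle transcripts took 0.00422% in GF-HFD mouse 13 and 0.000516 to 0.000633% in the others. GF-ND mice 9, 10 and 12 had 0.000599 to 0.000845%. The part of the marker lists in the differences of the cilium genes was not tested.

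Of the 38 genes, 28 share no exonic base with another gene in GENCODE vM21, and 10 do: Bbs4, Bbs12, Mkks, Arl6, Ift57, Ift88, Cep290, Rpgr, Rpgrip1 and Kif17. The strand setting of the counting is not stated, so the counts of these 10 are uncertain. Adjusted p below are edgeR's, after Benjamini-Hochberg adjustment over all genes tested in that fit, and the plot of fold changes shows both fits gene by gene.

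**Figure D1:**
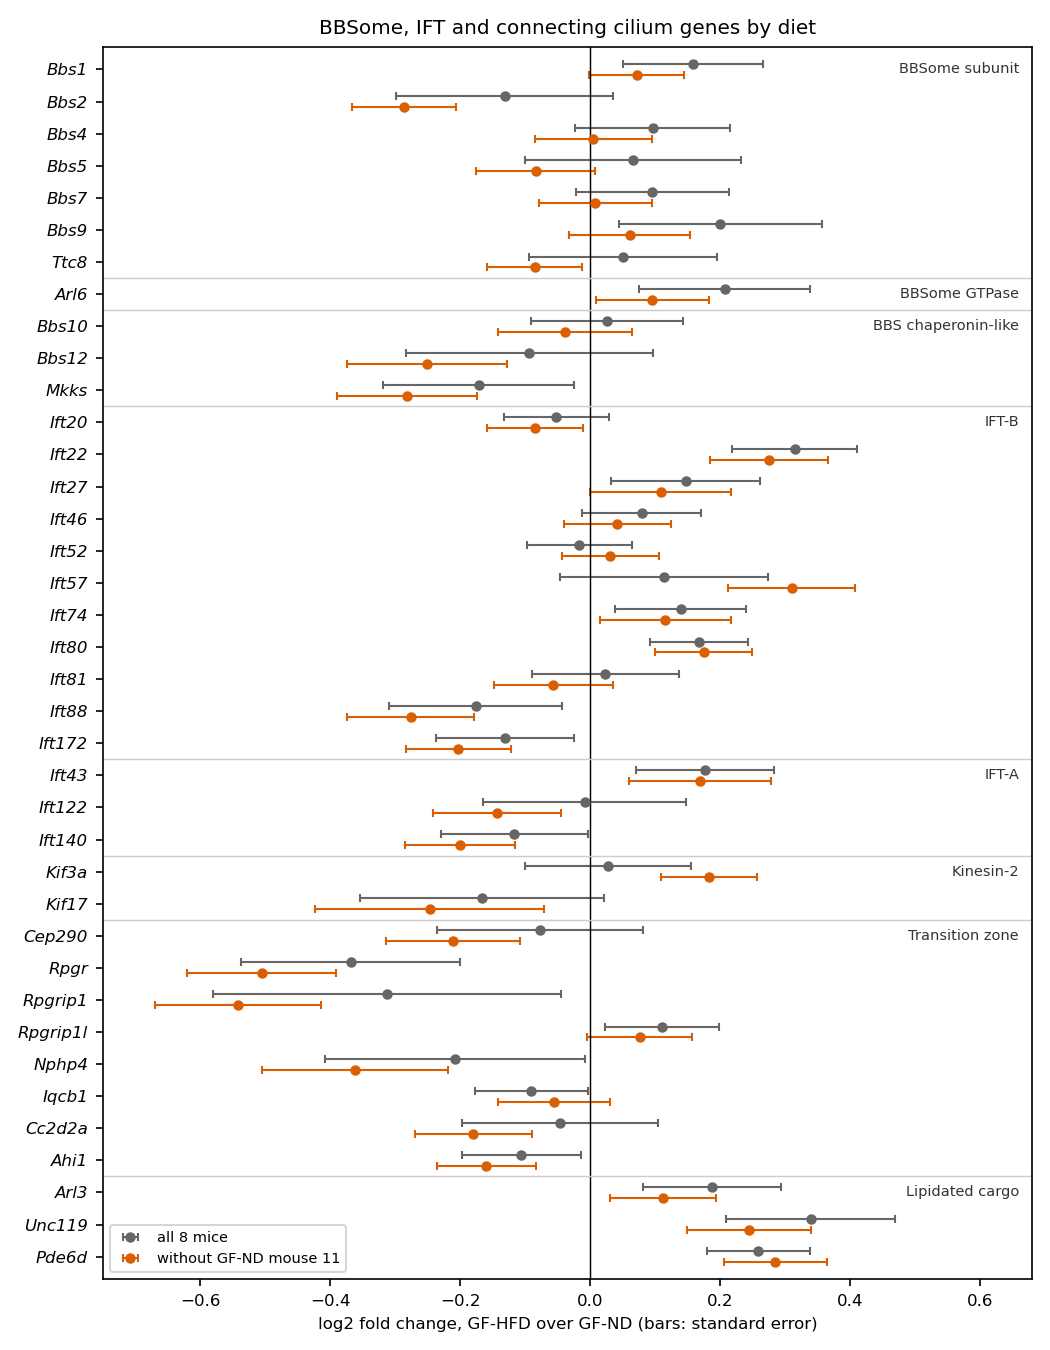
Log2 fold change of each of the 38 genes, GF-HFD over GF-ND, with its standard error from edgeR, grouped by role. Grey points use all 8 mice and orange points leave out GF-ND mouse 11; without this mouse Rpgr and Rpgrip1 lie farthest to the left, at −0.51 and −0.54, and Ift57 and Pde6d farthest to the right, at 0.31 and 0.29.

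Of the 7 BBSome subunits (Bbs1, Bbs2, Bbs4, Bbs5, Bbs7, Bbs9 and Ttc8), 0 reached an unadjusted p under 0.05 with all 8 mice. Their log2 fold changes lay between −0.13 and 0.20, with a median of 0.10, and 6 were above 0. On the rod scale all 7 were below 0. Without GF-ND mouse 11 the range was −0.29 to 0.07 and the median 0.01, and 1 subunit, Bbs2, was lower at an unadjusted p under 0.05.

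Bbs2, which with Bbs7 and Bbs9 forms the core on which the BBSome is assembled, had 105, 109, 110 and 96.6 CPM in GF-HFD mice 13, 15, 16 and 19, against 114, 139, 74.7 and 133 CPM in GF-ND mice 9, 10, 11 and 12. CPM are counts relative to a common library size, scaled by TMM, which sets libraries on a scale where most genes keep their level. The 4 GF-HFD values sat close together, below 3 of the GF-ND values and above that of mouse 11. GF-HFD retinas averaged 105 ± 5.97 CPM and GF-ND retinas 115 ± 29.0 CPM (n = 4 each, ± SD). Its log2 fold change was −0.13 (SE 0.17, adjusted p = 0.85) with all mice and −0.29 (SE 0.080, adjusted p = 0.0814) without mouse 11. Over 12 alternatives run without mouse 11 the adjusted p of Bbs2 ranged between 0.0105 and 0.228, under 0.05 in 4 of them.

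Arl6, the small GTPase that recruits the BBSome to membranes, had 131, 156, 134 and 132 CPM in GF-HFD retinas, against 141, 120, 89.9 and 128 CPM in GF-ND retinas. The diets overlapped, with GF-HFD mouse 15 the highest of the 8 and GF-ND mouse 11 the lowest. Its log2 fold change was 0.21 (SE 0.13, adjusted p = 0.695) with all mice and 0.10 without GF-ND mouse 11, and −0.11 on the rod scale with all mice.

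The 3 chaperonin-like proteins Mkks, Bbs10 and Bbs12 help to assemble the BBSome and are not part of it. Mkks had 17.8, 21.2, 21.0 and 23.6 CPM in GF-HFD mice 13, 15, 16 and 19, against 28.1, 25.2, 17.7 and 23.2 CPM in GF-ND mice 9, 10, 11 and 12. The diets overlapped also among the 7 mice other than mouse 11, since GF-HFD mouse 19 lay above GF-ND mouse 12. The log2 fold change of Mkks was −0.17 (SE 0.15, adjusted p = 0.764) with all mice and −0.28 (SE 0.11, adjusted p = 0.157) without mouse 11. Bbs12 had −0.09 with all mice and −0.25 (adjusted p = 0.249) without mouse 11, and Bbs10 had 0.03 and −0.04 in the same fits. Of the 3, 1 was above 0 with all 8 mice, and 0 were without mouse 11. Mkks shares 944 of its exonic bases with other genes.

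Among the 11 IFT-B genes, GF-HFD retinas had the higher level in 7 and the lower in 4 in both fits, with a median log2 fold change of 0.08 with all mice and 0.04 without GF-ND mouse 11. On the rod scale all 11 were below 0 with all mice. Ift22, a small GTPase-like subunit (Rabl5), had 34.4, 40.3, 34.6 and 33.4 CPM in GF-HFD retinas, against 31.7, 28.3, 26.0 and 28.6 CPM in GF-ND retinas, again in the order of mouse numbers. The GF-HFD values all lay above the GF-ND values, with mouse 9 nearest to them, although with library totals as the scale 0 of the 38 genes, Ift22 included, had separated diets, beside 3.90% of all genes. GF-HFD retinas averaged 35.7 ± 3.17 CPM and GF-ND retinas 28.7 ± 2.33 CPM (n = 4 each, ± SD). In edgeR the difference was 0.32 on the log2 scale (SE 0.096, adjusted p = 0.649) with all mice and 0.28 (SE 0.091, adjusted p = 0.116) without mouse 11, and on the rod scale it was −0.03 and 0.09 in the same fits. The two-sided exact permutation test of log2 CPM gave p = 0.0286, the smallest that 4 mice against 4 can give. Separated diets always give this p, and 4.83% of all genes were separated.

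Ift57, an IFT-B subunit of the outer part of the train, had nearly the same level in the 4 GF-HFD retinas, at 21.9, 21.7, 21.5 and 22.0 CPM, against 18.5, 15.5, 27.6 and 18.7 CPM in GF-ND retinas. Here GF-ND mouse 11 was the highest of all 8, 1.57 times the mean of the other GF-ND mice, and those 3 mice lay below all GF-HFD mice. The difference on the log2 scale was 0.11 (SE 0.16, adjusted p = 0.868) with all mice and 0.31 (SE 0.098, adjusted p = 0.106) without mouse 11. On the rod scale it was −0.29 with all mice and 0.13 without mouse 11.

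Ift80, a further IFT-B subunit, had 90.3, 97.8, 92.9 and 83.1 CPM in GF-HFD retinas, against 76.3, 81.6, 81.5 and 84.7 CPM in GF-ND retinas. The overlap was that of GF-HFD mouse 19 with GF-ND mouse 12, and GF-ND mouse 11 lay among the other GF-ND mice. Its log2 fold change was 0.17 in both fits (adjusted p = 0.649 with all mice and adjusted p = 0.192 without mouse 11). Its rod-scale values were −0.19 with all mice and −0.01 without mouse 11.

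Ift88 and Ift172 are IFT-B subunits needed to build and keep the outer segment in mice. Ift88 had 32.4, 28.4, 31.6 and 26.7 CPM in GF-HFD retinas, against 31.97, 38.5, 26.0 and 38.04 CPM in GF-ND retinas, with GF-ND mouse 11 below all GF-HFD mice and GF-ND mouse 9 below GF-HFD mouse 13. Its log2 fold change was −0.18 (SE 0.13, adjusted p = 0.738) with all mice and −0.28 (SE 0.098, adjusted p = 0.135) without mouse 11. Ift172 had 72.0, 68.3, 71.8 and 66.1 CPM in GF-HFD retinas, against 73.0, 91.0, 63.3 and 77.1 CPM in GF-ND retinas. Its GF-HFD values lay under the GF-ND values of mice 9, 10 and 12, by a small margin only for mouse 9, and above that of mouse 11, with a log2 fold change of −0.13 (SE 0.11, adjusted p = 0.751) with all mice and −0.20 (SE 0.081, adjusted p = 0.168) without mouse 11. The other 6 IFT-B genes (Ift20, Ift27, Ift46, Ift52, Ift74 and Ift81) lay between −0.05 and 0.15 with all mice, and none of these 6 had an unadjusted p under 0.05 in either fit.

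The 3 IFT-A genes were Ift43, Ift122 and Ift140, with log2 fold changes of 0.18, −0.01 and −0.12 with all mice and 0.17, −0.14 and −0.20 without GF-ND mouse 11. Ift140 had 51.4, 52.8, 50.4 and 47.1 CPM in GF-HFD retinas, against 50.6, 62.4, 44.2 and 61.4 CPM in GF-ND retinas. Mice 10 and 12 lay above all GF-HFD mice and mouse 11 below them. Its adjusted p was 0.795 with all mice and 0.189 without mouse 11.

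Of the kinesin-2 motors, Kif3a, a motor subunit of the heterotrimeric kinesin-II, had 81.4, 83.2, 75.8 and 78.3 CPM in GF-HFD retinas, against 75.8, 68.1, 101 and 67.3 CPM in GF-ND retinas. As with Ift57, GF-ND mouse 11 was the highest of the 8, at 1.44 times the mean of the other GF-ND mice. With all mice the log2 fold change was 0.03 (SE 0.13, adjusted p = 0.967), and without mouse 11 it was 0.18 (SE 0.074, adjusted p = 0.172). Scaled by the rod genes it was −0.37 with all mice and 0.0045 without mouse 11. Kif17, a homodimeric kinesin-2 and the gene with the lowest mean level of the 38, had 5.80, 4.63, 4.90 and 5.25 CPM in GF-HFD retinas, against 4.89, 7.63, 4.69 and 5.89 CPM in GF-ND retinas, and its log2 fold change of −0.17 was smaller than its standard error of 0.19.

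Most of the 8 transition zone genes had the lower level in GF-HFD retinas. With all mice this held for 7 of 8, all but Rpgrip1l, with a median log2 fold change of −0.10 and 0 of 8 at an unadjusted p under 0.05. Without GF-ND mouse 11 the same 7 to 1 split stood at a median of −0.20, and 3 genes had an unadjusted p under 0.05, all lower (Rpgr, Rpgrip1 and Nphp4), beside 23% of all genes under 0.05 and 11% lower. All 8 were below 0 on the rod scale in both fits. The difference in direction between the roles was not tested.

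Rpgrip1, the scaffold that anchors Rpgr in the connecting cilium, had 1134, 853, 915 and 865 CPM in GF-HFD mice 13, 15, 16 and 19, against 1158, 1430, 549 and 1542 CPM in GF-ND mice 9, 10, 11 and 12. GF-ND mouse 11 had 0.399 times the mean of the other GF-ND mice, the lowest such ratio of the 38 genes, and lay below all GF-HFD retinas, while the other 3 GF-ND retinas lay above all of them. GF-HFD retinas averaged 942 ± 131 CPM and GF-ND retinas 1170 ± 444 CPM (n = 4 each, ± SD), and the GF-ND retinas other than mouse 11 averaged 1377 ± 198 CPM (n = 3, ± SD). On the log2 scale the difference was −0.31 (SE 0.27, adjusted p = 0.763) with all mice and −0.54 (SE 0.13, adjusted p = 0.0575) without mouse 11. Over the same 12 alternatives without mouse 11 its adjusted p ranged between 0.000299 in DESeq2 and 0.193, under 0.05 in 6 of them. The two-sided exact permutation test gave p = 0.514 with all mice and, without mouse 11, p = 0.0571, the smallest that 4 mice against 3 can give. Rpgrip1 lies on chromosome 14 from 52110704 to 52163546 of GRCm38 and shares 1057 of its 12152 exonic bases with Supt16 on the opposite strand.

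Rpgr, an X-linked regulator of ciliary transport and a frequent cause of X-linked retinitis pigmentosa in people, had 53.7, 43.2, 41.2 and 44.7 CPM in GF-HFD retinas, against 54.8, 69.0, 40.6 and 71.6 CPM in GF-ND retinas. The order of the mice was like that in its partner Rpgrip1. Mouse 11 was the lowest of the 8, and the other GF-ND mice were above all GF-HFD mice, mouse 9 by a small margin over GF-HFD mouse 13. GF-HFD retinas averaged 45.7 ± 5.54 CPM and GF-ND retinas 59.0 ± 14.3 CPM (n = 4 each, ± SD), and the GF-ND retinas other than mouse 11 averaged 65.1 ± 9.02 CPM (n = 3, ± SD). The log2 fold change was −0.37 (SE 0.17, adjusted p = 0.649) with all mice and −0.51 (SE 0.11, adjusted p = 0.0527) without mouse 11. Over the same 12 alternatives its adjusted p ranged between 0.000938 in DESeq2 and 0.192, under 0.05 in 7 of them. The exact permutation test gave p = 0.2 with all mice and p = 0.0571 without mouse 11. Rpgr lies on chromosome X from 10073621 to 10216920 and shares 208 of its 7247 exonic bases with Srpx.

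Nphp4, a nephrocystin of the transition zone, had 28.3, 25.1, 22.9 and 25.9 CPM in GF-HFD retinas, against 26.2, 31.0, 19.2 and 41.6 CPM in GF-ND retinas, with mouse 11 the lowest, mouse 12 the highest and the other retinas overlapping. Its log2 fold change was −0.21 (SE 0.20, adjusted p = 0.792) with all mice and −0.36 (SE 0.14, adjusted p = 0.166) without mouse 11. The other transition zone genes had no unadjusted p under 0.05 in either fit. Cep290, which links the microtubules of the connecting cilium to its membrane, had −0.08 with all mice and −0.21 (adjusted p = 0.249) without mouse 11, Ahi1 had −0.11 and −0.16 (adjusted p = 0.236), and Cc2d2a had −0.05 and −0.18 (adjusted p = 0.26). Iqcb1 had −0.09 and −0.06, and Rpgrip1l, a relative of Rpgrip1, had 0.11 and 0.08.

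The 3 genes for transport of lipid-anchored cargo (carriers Pde6d and Unc119, and Arl3) all had log2 fold changes above 0 in both fits, with a median log2 fold change of 0.26 with all mice and 0.24 without GF-ND mouse 11; on the rod scale the medians were −0.10 and 0.06. Pde6d binds prenylated proteins such as the rod phosphodiesterase. It had 106, 101, 97.0 and 90.3 CPM in GF-HFD retinas, against 86.4, 81.1, 86.0 and 76.5 CPM in GF-ND retinas. The GF-HFD values all lay above the GF-ND values, and mouse 11 was not apart from the other GF-ND mice. With library totals as the scale the diets overlapped in Pde6d. GF-HFD retinas averaged 98.7 ± 6.80 CPM and GF-ND retinas 82.5 ± 4.67 CPM (n = 4 each, ± SD). The log2 fold change was 0.26 (SE 0.079, adjusted p = 0.649) with all mice and 0.29 (SE 0.079, adjusted p = 0.0805) without mouse 11, and the two-sided exact permutation test with all mice gave p = 0.0286. On the rod scale it was −0.10 with all mice and 0.11 without mouse 11. Pde6d lies on chromosome 1 from 86542994 to 86582629 and shares no exonic base with another gene.

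Unc119 binds myristoylated cargo such as the alpha subunit of rod transducin. It had 1407, 1489, 1432 and 1185 CPM in GF-HFD retinas, against 1220, 1151, 854 and 1131 CPM in GF-ND retinas. GF-HFD mouse 19 lay below GF-ND mouse 9, the one overlap, and mouse 11 was the lowest. GF-HFD retinas averaged 1378 ± 133 CPM and GF-ND retinas 1089 ± 161 CPM (n = 4 each, ± SD), with a log2 fold change of 0.34 (SE 0.13, adjusted p = 0.649) with all mice and 0.24 (SE 0.095, adjusted p = 0.164) without mouse 11. On the rod scale it was 0.02 and 0.06 in the same fits. The list of 14 rod genes had a median log2 fold change of 0.32 with all mice and 0.20 without mouse 11, and whether the rod share plays a part in the Unc119 difference was not tested. Arl3, the GTPase that releases cargo from both carriers inside the cilium, had 190.5, 213, 179 and 187 CPM in GF-HFD retinas, against 191, 177, 140 and 168 CPM in GF-ND retinas, with a log2 fold change of 0.19 (SE 0.11, adjusted p = 0.669) with all mice and 0.11 without mouse 11.

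**Figure D2:**
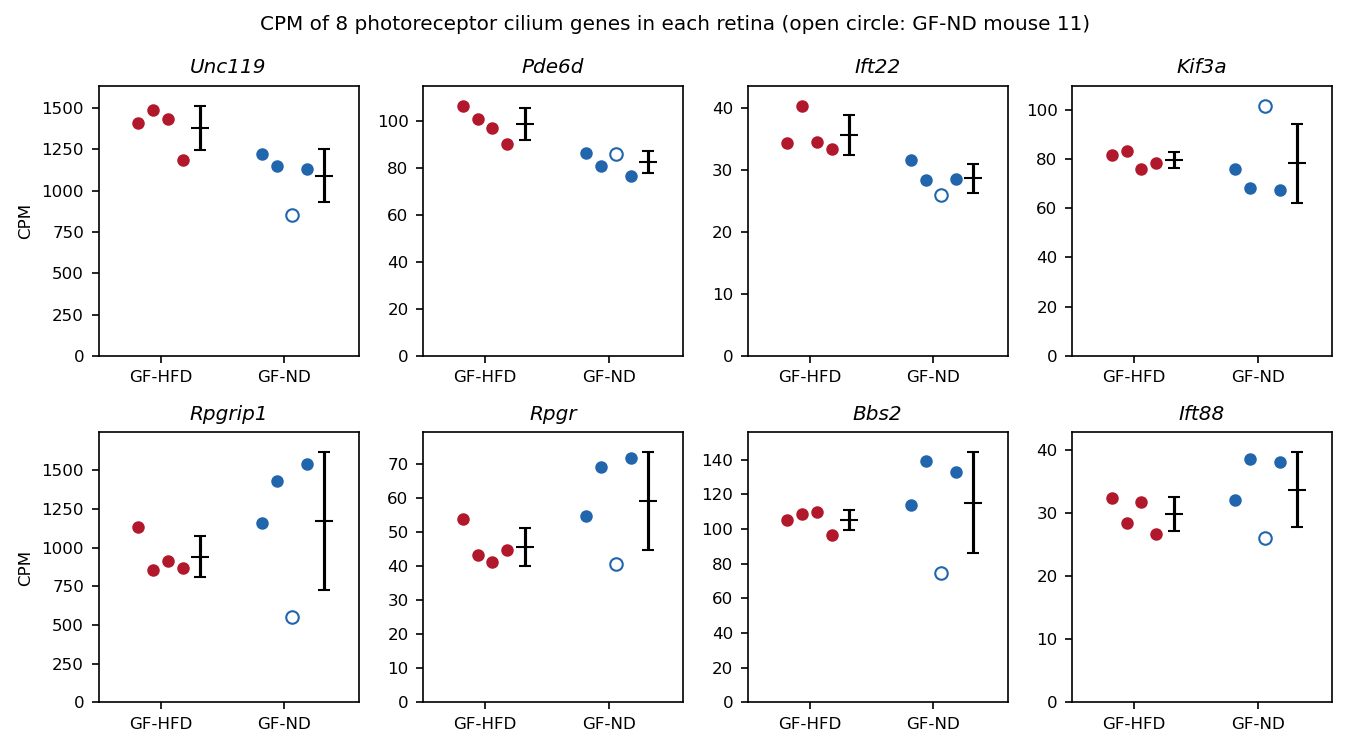
CPM of 8 of the genes in each retina, GF-HFD on the left and GF-ND on the right of each panel; points are mice, the open circle is GF-ND mouse 11, and the bar is the mean ± SD of 4 mice. In Pde6d and Ift22 the diets do not overlap, while in Rpgrip1, Rpgr and Bbs2 the open circle lies below the GF-HFD points and the other GF-ND points above them.

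GF-ND mouse 11 set much of the spread among GF-ND retinas. It was the lowest of all 8 mice in 27 of the 38 genes and the highest in 3 (Ift52, Ift57 and Kif3a), beside 17.99% and 21.0% of all genes tested. The mean log2 CPM over the 38 genes was 6.02, 6.06, 6.00 and 5.96 in GF-HFD mice 13, 15, 16 and 19, against 5.99, 6.06, 5.71 and 6.14 in GF-ND mice 9, 10, 11 and 12. Apart from mouse 11, the diets overlapped in this mean. Mean log2 CPM over the rod list was 11.24, 11.53, 11.28 and 11.19 in the GF-HFD mice, against 11.15, 11.17, 10.53 and 11.07 in the GF-ND mice, so that mouse 11 was lowest in it as well. Mouse 12 was the highest of all 8 in 14 of the 38 genes and GF-HFD mouse 15 in 11. The median coefficient of variation of the 38 genes was 6.82% among GF-HFD mice and 16.1% among GF-ND mice, and 9.41% among the GF-ND mice other than mouse 11. Markers of motile cilia, which rods and cones do not have, were tested in 10 of 12 cases, with 5 higher and 5 lower, and made up 0.00544 to 0.00634% of a GF-HFD library and 0.00426 to 0.00822% of a GF-ND library, with mouse 11 at the lower end.

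**Figure D3:**
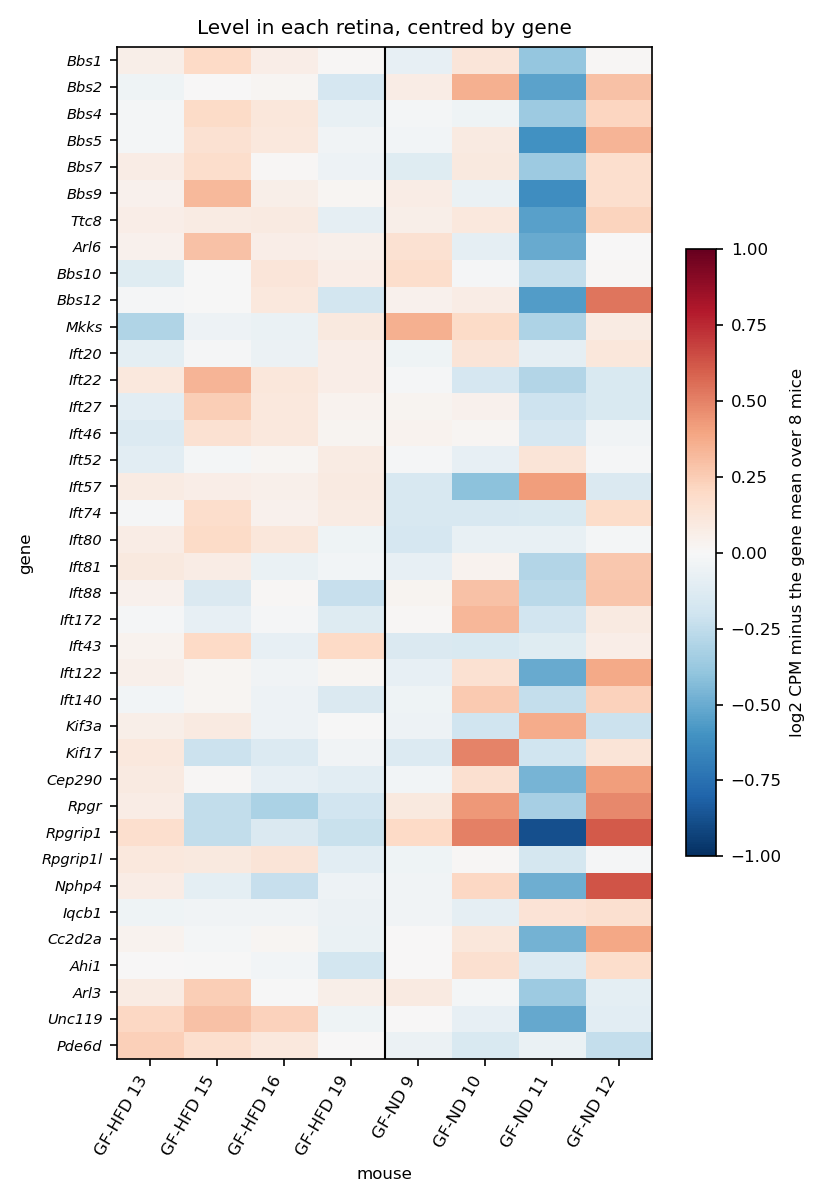
Log2 CPM of the 38 genes (rows, by role) in each retina (columns, GF-HFD then GF-ND), minus each gene's mean over the 8 mice; red is above and blue below the mean. The column of GF-ND mouse 11 is blue in most rows, and it is the lowest of the 8 in 27 of them.

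Levels can be set side by side between genes only per length of RNA, taken here as CPM per kilobase of exonic bases in GENCODE vM21. Over all 38 genes this level had a median of 13.2, from 1.19 in Kif17 to 504 in Unc119. For Unc119, GF-HFD retinas averaged 563 ± 54.5 CPM per kilobase and GF-ND retinas 445 ± 65.8 (n = 4 each, ± SD). Rpgrip1 followed with 77.5 ± 10.8 for GF-HFD and 96.3 ± 36.6 for GF-ND retinas, Arl3 with 77.3 ± 5.85 and 67.8 ± 8.75, and Arl6 with 65.9 ± 5.69 and 57.1 ± 10.4, in the same order of diets. The ranges of mean ± SD of Rpgrip1 and Arl3, and of Arl3 and Arl6, overlapped on each diet. Among the IFT subunits Ift20 had the highest level per length, at 29.7 ± 1.47 for GF-HFD and 30.8 ± 2.34 for GF-ND retinas. Rpgrip1l, at 2.25 ± 0.164 for GF-HFD and 2.08 ± 0.120 for GF-ND retinas, was next to the lowest. Exonic bases are summed over all annotated isoforms, so genes with many isoforms have a low value per length.

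Genes with fewer exonic bases tended to lie higher in GF-HFD retinas. Across the 38 genes, exonic length and log2 fold change had a Pearson correlation of −0.34 and a Spearman correlation of −0.34 with all mice, and −0.38 and −0.36 without GF-ND mouse 11. These are descriptions over genes measured in the same libraries, which are not independent. The same correlations over the 10276 genes with at least 10 CPM were −0.09 (Pearson) and −0.22 (Spearman) with all mice, and −0.19 and −0.24 without mouse 11. The 18 cilium genes of at least 5 kb had a median log2 fold change of −0.03 with all mice and −0.10 without mouse 11, beside 0.01 and 0.05 for the 5182 genes of that length, and the 20 shorter ones had 0.06 in both fits, beside 0.07 and 0.13 for 5094 genes. Rpgrip1, with 12.2 kb, and Ift80, with 12.4 kb, had almost the same exonic length and differences of opposite sign, and the part of length in the differences was not tested.

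**Figure D4:**
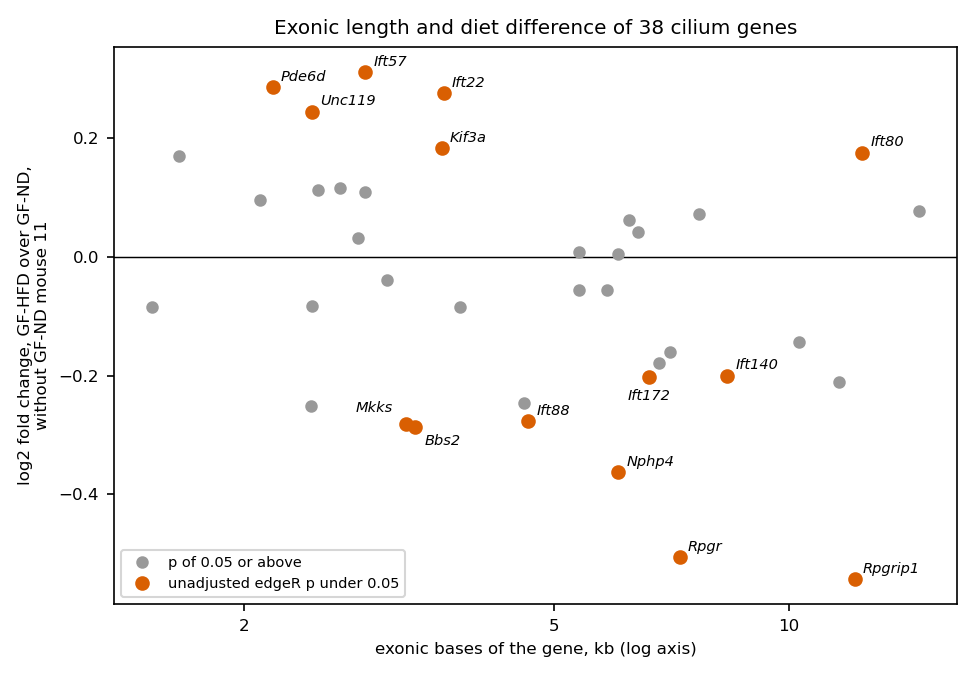
Log2 fold change of the 38 genes without GF-ND mouse 11 (vertical axis) by the exonic bases of each gene in kilobases (log axis). Orange points are the 14 genes with an unadjusted edgeR p under 0.05; the 6 higher ones have a median of 3.22 kb and the 8 lower ones a median of 6.33 kb.

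A second set of 55 cilium genes, listed from general knowledge of the same machinery, was tested in the same fits. With all 8 mice GF-HFD retinas were above GF-ND retinas in 31 and below them in 24, with a median log2 fold change of 0.02. An unadjusted edgeR p under 0.05 was reached by 3 higher and 3 lower genes of the 55, beside 2.85% and 4.53% of all genes. None of the 55 passed after adjustment, beside 0 of all 26900 genes, and these 6 had an adjusted p of 0.649. The 3 higher genes were Dync2li1, a light intermediate chain of the retrograde motor dynein-2 (log2 fold change 0.34, SE 0.11), Ttc30b, an IFT-B subunit with close copies among which reads may be split (0.27, SE 0.085), and Kifap3, the accessory subunit of kinesin-II (0.18, SE 0.073). Lower genes were Invs, a protein of the proximal cilium (−0.39, SE 0.14), and Tulp3, an adaptor of IFT-A (−0.45, SE 0.16). The 8 other motor genes were all above 0, with a median of 0.14, but 5 of 8 were with library totals as the scale, 0 of 8 on the rod scale, and 6 of 8 without GF-ND mouse 11. The 7 other genes for lipid-anchored cargo were 5 higher and 2 lower with all mice (median 0.05), and 3 higher and 4 lower without mouse 11 (median −0.02). The 14 other BBSome and IFT genes were 6 higher and 8 lower in both fits. The 8 photoreceptor axoneme genes were 5 higher and 3 lower with all mice, and 2 higher and 6 lower without mouse 11. Of the 18 other transition zone genes, 7 were higher and 11 lower with all mice, and 5 were higher and 13 lower without mouse 11. In that fit 4 of the 55 genes were higher and 10 lower at an unadjusted p under 0.05, beside 12.1% and 11% of all genes. After adjustment 1 of the 55 passed, beside 1.6% of all genes: Tctn1 of the transition zone, singled out after its values were seen, with a log2 fold change of −0.42 (SE 0.088, edgeR adjusted p = 0.0448). Tctn1 shares 2113 of its 8295 exonic bases with Hvcn1 and Gm15481 on the opposite strand, so its counts are uncertain too. Over the 12 alternatives its adjusted p ranged between 0.000488 and 0.173, under 0.05 in 7 of them.

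The 4 genes with a complete X-box half-site had no direction in common. With all mice Bbs1 had a log2 fold change of 0.16 and Ift27 of 0.15, against −0.18 for Ift88 and −0.21 for Nphp4, and without GF-ND mouse 11 the values were 0.07, 0.11, −0.28 and −0.36 in the same order. Genes with only the core had no common direction either. Pde6d, Kif3a, Ift57 and Bbs7 were above 0 in both fits, and Ift140, Ift172, Kif17 and Ahi1 below 0. Bbs5 was above 0 with all mice and below 0 without mouse 11. Of the genes with a CRX site, Unc119 was above 0 and Rpgrip1 below 0 in both fits. No test was made of a motif against the differences.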

How the data were processed

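Reads (paired, 100-bp) were mapped by the authors with STAR 2.4.2 on GRCm38 and assigned to GENCODE vM23 genes by featureCounts (Subread 1.4.6-p1). The authors deposited raw counts, 1 table per retina, with no scaling or filter. Strand was not stated. Diets were compared with edgeR 4.0.16 in R 4.3.3 (TMM, a minimum of 10 counts summed over the libraries, quasi-likelihood test, Benjamini-Hochberg adjustment over all genes tested), with all 8 mice and without GF-ND mouse 11. Log2 CPM used a prior count of 2. Exact permutation tests of single genes were two-sided over 70 arrangements (35 without mouse 11, where the smallest p is 0.0571). A gene with separated diets always has the smallest p, so this p adds nothing to the separation. Positions, exonic lengths and overlaps come from GENCODE vM21 and promoters from RefSeq (GRCm38.p6).

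The genes and lists were chosen with earlier results of these data known. Values in each mouse are given for genes at an unadjusted p under 0.05, or with separated diets, in either fit, and for the highest and lowest gene; those of Arl6 and Arl3 were added after their values were seen. Up to 8 of the other cilium genes, by smallest p, are named, and some items are not reported here. Alternatives were RLE factors, library totals, upper-quartile factors, factors from the 14 rod genes (the rod scale), no filter, filterByExpr, 10 CPM in 4 libraries, a prior count of 0.5, DESeq2 1.42.0, limma-voom (limma 3.58.1) and each mouse left out in turn. Those run without mouse 11 and the shorter motif core were added after the data had been seen. The paper's thresholds were taken as a log2 fold change beyond 1 with an unadjusted p under 0.01. The edgeR fit was tested on simulated data.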

Additional observations from a re-analysis of the deposited data

Results flagged for a closer look

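Within a diet, 7 of 76 sets of 4 values (38 genes in 2 diets) held 1 mouse far from the other 3, by Dixon's ratio of its gap to the whole range of the 4, and chance gives about 1 set in 20. GF-HFD mouse 15 was above the other GF-HFD mice in Bbs9 (154 CPM against 125 to 128, ratio 0.873) and in Arl6 (156 against 131 to 134 CPM, ratio 0.896). GF-HFD mouse 19 was below the others in Ttc8 (109 against 121 to 124 CPM, ratio 0.835), Rpgrip1l (29.5 against 34.0 to 34.7 CPM, ratio 0.871) and Ahi1 (180 against 201 to 205 CPM, ratio 0.843). GF-ND mouse 12 was above the other GF-ND mice in Ift74 (39.2 against 30.9 to 31.1 CPM, ratio 0.962) and Ift43 (19.4 against 16.6 to 17.01 CPM, ratio 0.842). GF-ND mouse 11, the library rich in lens transcripts, was not among the 7, although it was the lowest of all 8 mice in 27 of the 38 genes. No cause of these values was tested.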

How the results depend on the processing

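With all 8 mice the median log2 fold change of the 38 genes (0.03) was −0.017 with library totals, −0.30 with the 14 rod genes as scale, −0.028 with the 10 CPM filter and −0.044 without mice 11 and 19, and it ranged from −0.047 (without mouse 11) to 0.095 (without mouse 12) when each mouse was left out in turn. The rod scale moved the median of all genes to −0.37, and relative to all genes the 38 lay 0.08 above. The 3 genes at an unadjusted p under 0.05 became 12 on the rod scale, all lower, 12 without mice 11 and 19, and 2 to 14 with single mice left out (14 without mouse 11, 5 without mouse 12), beside 16.6%, 19.3%, 23.0% and 6.10% of all genes on the rod scale, without both mice, without mouse 11 and without mouse 12. Genes whose diets were separated (2) numbered 0 with library totals and 2 to 7 with single mice left out (7 without mouse 11, 5 without each of 9, 12 and 19), while all genes were separated in 3.90% with library totals, 20.2% without mouse 11 and 7.75%, 7.60% and 7.82% without 9, 12 and 19. Over all genes, adjusted calls (0) were 46 in DESeq2, 55 without mice 11 and 19, and 0 to 421 with single mice left out, while 123 genes met the paper's thresholds, against 470 on the rod scale, 5 with the 10 CPM filter, 200 in DESeq2, 294 without mice 11 and 19, and 65 to 353 with single mice left out. On the rod scale Pde6d (−0.10), Ift22 (−0.026), Dync2li1 (−0.012), Ttc30b (−0.084) and Kifap3 (−0.18) changed sign. Many genes at an unadjusted p of 0.05 or more with all mice did so too, Ift80 (−0.19), Ift57 (−0.29), Kif3a (−0.37) and Arl6 (−0.11) among them. Genes above 0 went from 6 to 0 of the 7 BBSome subunits and from 7 to 0 of the 11 IFT-B genes. Without mouse 11 the rod scale changed the sign of Ift80 (−0.0094) and Arl6 (−0.09), among others. In that fit 0 of the 7 BBSome subunits were above 0 on the rod scale, against 4 on the TMM scale. Without mouse 11, adjusted calls among the 38 (0) were 1 with RLE factors (Rpgr; 1.90% of all genes), 3 with library totals (3.59%) and 3 on the rod scale (3.96%; Bbs2, Rpgr and Rpgrip1 in both), 1 with filterByExpr (Rpgr; 3.28%), 5 in DESeq2 (the same 3, Ift57 and Pde6d; 10.03%), 1 in limma-voom (Rpgrip1; 1.29%), and 0 to 3 with a further mouse left out (3 without GF-ND mouse 9, beside 4.93%, and 2 without GF-HFD mouse 13, beside 3.32%). The 14 genes at an unadjusted p under 0.05 were 9 (without GF-ND mouse 10) to 17 (without GF-ND mouse 9) with a further mouse left out, and the median of −0.05 was −0.13 with library totals, −0.22 on the rod scale, and −0.072 (without GF-ND mouse 9) to 0.0054 (without GF-ND mouse 12) with a further mouse left out. The causes were not tested. No paired analysis was possible because the diets share no replicate numbers. With 4 mice a diet, a count of 0 calls does not show that levels were alike.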
